A study of Mus musculus with 2 samples.

Results

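The genes described here code for adipokines and other proteins that fat cells secrete. They were chosen by name, as a list of 9 gene symbols (Adipoq, Retn, Lep, Cfd, Rbp4, Nampt, Apln, Rarres2 and Angptl4), and all 9 had a row among the 46095 genes of the count table. RNA-seq was performed on C3H10 cells (C3H/10T1/2), a line of mouse embryonic mesenchymal cells that form adipocytes in culture. One library came from cells transfected with 100 nM of a negative control antisense oligonucleotide (ASO), referred to as control cells, and 1 library from cells transfected with 100 nM of an ASO against MALAT1, referred to as MALAT1-knockdown cells. Which of the study's ASOs against MALAT1 was sequenced is not given in the sources used here. Both cultures were then grown to confluence, induced with isobutylmethylxanthine, dexamethasone, troglitazone and insulin, and kept in insulin alone until day 6 of differentiation. Troglitazone activates PPAR-γ, so every library here came from cells that had received a PPAR-γ agonist. The labels give the strain as C57BL/6 for both samples, whereas the name of the line refers to the C3H strain.

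Adipose tissue is an endocrine organ as well as a store of fat. Adiponectin, leptin and resistin are hormones made largely by adipocytes in the mouse, and adipsin (Cfd) is a serine protease of the complement system that adipocytes release in large amounts. Other adipokines, such as Nampt, apelin and chemerin, are also made by many other cells. Several of these genes are switched on as preadipocytes become lipid-filled adipocytes, and the Adipoq gene is a classical target of PPAR-γ.

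The files held 58147539 counts for control cells and 61653549 for MALAT1-knockdown cells. Malat1 itself went from 170402 to 45396 counts, which was 24.7% of the control level after scaling of the libraries. The 17356 genes tested were those whose counts in the pair of libraries added up to 10 or more. Fold changes are given as log2 of the knockdown count over the control count, after scaling by edgeR's TMM factors with a prior count of 0.5. A gene was called if it differed at least 2-fold and had an adjusted p under 0.05 in a two-sided exact binomial test with Benjamini-Hochberg adjustment over all genes tested. Each condition had 1 library. The test therefore set 1 library against the other without any measure of the spread between cultures, and every 95% interval covers counting error only.

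Of the 9 adipokine genes, 7 were tested and 2 (Lep and Angptl4) had too few counts. The 4 genes called lower in MALAT1-knockdown cells were Rbp4, Retn, Cfd and Adipoq, and none was called higher. Among all genes tested, 4.09% were called lower and 2.19% were called higher. Among the 8251 genes with a mean of at least 1000 counts, 0.739% were called lower and 0.0121% were called higher. Of the 6 adipokine genes above that level, 3 were called lower. The other 3 tested genes (Rarres2, Nampt and Apln) differed by less than 2-fold.

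The promoters of the 4 genes called lower are shown so that their letters can be compared. They were taken from RefSeq on GRCm38.p6, where 7 of the 9 genes had an entry, and each is the run of 250 bases before the annotated start, 5′ to 3′ on the strand of the gene. They lie at chr16:23146286-23146535 on the plus strand for Adipoq, chr8:3655520-3655769 on the plus strand for Retn and chr10:79890603-79890852 on the plus strand for Cfd. Rbp4 has more than 1 annotated start, and the window shown, which lies before the whole gene, is at chr19:38125322-38125571 on the minus strand. Capitals mark matches on either strand to TATAAA (the TATA box), CCAAT, TTGCNNAA (a C/EBP motif) or AGGTCA (the core bound by many nuclear receptors).
Adipoq: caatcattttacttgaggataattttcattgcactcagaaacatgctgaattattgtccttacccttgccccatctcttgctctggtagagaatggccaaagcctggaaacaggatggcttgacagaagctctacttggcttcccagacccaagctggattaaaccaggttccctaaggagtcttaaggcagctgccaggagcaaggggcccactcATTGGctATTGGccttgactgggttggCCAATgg
Retn: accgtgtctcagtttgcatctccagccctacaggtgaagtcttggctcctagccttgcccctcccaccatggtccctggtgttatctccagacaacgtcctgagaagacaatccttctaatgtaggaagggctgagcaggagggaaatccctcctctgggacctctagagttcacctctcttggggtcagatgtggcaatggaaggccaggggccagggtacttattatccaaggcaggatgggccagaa
Cfd: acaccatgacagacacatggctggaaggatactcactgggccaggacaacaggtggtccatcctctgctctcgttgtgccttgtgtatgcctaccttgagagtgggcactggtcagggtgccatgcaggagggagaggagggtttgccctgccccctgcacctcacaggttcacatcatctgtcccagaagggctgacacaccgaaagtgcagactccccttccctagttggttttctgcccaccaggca
Rbp4: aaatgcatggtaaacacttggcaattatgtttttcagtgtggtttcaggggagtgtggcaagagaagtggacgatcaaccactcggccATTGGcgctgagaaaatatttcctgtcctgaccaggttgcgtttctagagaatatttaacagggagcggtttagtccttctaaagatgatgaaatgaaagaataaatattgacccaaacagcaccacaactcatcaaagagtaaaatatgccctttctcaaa

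The Adipoq window held 3 CCAAT matches, which began 34, 27 and 7 bases before the start. The Rbp4 window shown held 1 CCAAT match that began 162 bases before the start. The other Rbp4 window, at chr19:38124812-38125061, held a TATA box that began 28 bases before its start and a C/EBP motif that began 128 bases before it. The Retn and Cfd windows held no match to any of these motifs. Among the windows not shown, that of Nampt held AGGTCA 151 bases and that of Lep a C/EBP motif 55 bases before the start, and that of Apln held no match. Over all 32851 promoter windows of the same length in the table, 12.4% held TATAAA, 33.8% CCAAT, 9.56% TTGCNNAA, 14.0% AGGTCA and 6.02% CACGTG, the E-box that was also searched. An exact direct repeat of AGGTCA with 1 base between the copies is the consensus form of a PPAR response element. It was found in 0.0335% of the windows and in none of the adipokine windows. A match this rare is hardly to be met in so few windows, so its absence does not tell whether PPAR-γ binds there. No adipokine window held CACGTG. The windows also differed in base composition. Adipoq had 0 CpG dinucleotides in 250 bases, Retn had 2 and Cfd had 2, against a median of 6 over all windows. The Rbp4 window shown had 5 and the other Rbp4 window 28. Among the genes that were not called lower, Apln had 12 and Nampt 27, and Lep, which was not tested, had 16. These matches describe letters and not bound sites.

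Adiponectin, encoded by Adipoq, is a hormone that raises insulin sensitivity. Adipoq (ENSMUSG00000022878.5, chr16:23146536-23158028, GRCm38) had 38769 counts in the control against 16923 in the knockdown. Per length of exon, using the union of its GENCODE M21 exons, its level was 487 RPKM (reads per kilobase of exon, scaled to library size) in control cells and 197 RPKM in knockdown cells. It was the 50th most abundant gene per length in the control library and the 162nd in the knockdown library, among the 15285 tested genes with an exon length. The log2 fold change was -1.30 (95% interval -1.33 to -1.28), which left 40.5% of the control level.

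Adipsin, encoded by Cfd, cleaves complement factor B and so starts the alternative complement pathway. Cfd (ENSMUSG00000061780.6, chr10:79890853-79892655) had 15711 counts in the control against 5257 in the knockdown. Its level per length was 295 RPKM in control cells and 91.8 RPKM in knockdown cells, so it remained an abundant transcript in both libraries. The log2 fold change of Cfd was -1.69 (95% interval -1.73 to -1.64), or 31.1% of the control level.

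Resistin, encoded by Retn, is an adipocyte hormone that opposes insulin action in the mouse. Retn (ENSMUSG00000012705.16, chr8:3655770-3660110) had 1592 counts in the control against 431 in the knockdown. Its level per length was 17.5 RPKM in control cells and 4.39 RPKM in knockdown cells. At a log2 fold change of -1.99 (95% interval -2.15 to -1.84), 25.2% of the control level was left, and the exact binomial test gave an adjusted p of 4.29e-173. Of the other members of the resistin family, Retnla had 20 and 14 counts, and Retnlb and Retnlg had 0 counts in both libraries.

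Retinol-binding protein, encoded by Rbp4, carries retinol in the blood and is made by liver and fat. Rbp4 (ENSMUSG00000024990.13, chr19:38116629-38125281) was weakly expressed, with 80 counts in the control against 17 in the knockdown. Its level per length was 1.03 RPKM (95% interval 0.819 to 1.28) in control cells and 0.204 RPKM (0.119 to 0.326) in knockdown cells. The log2 fold change of -2.31 had a wide interval, from -3.19 to -1.57, with an adjusted p of 3.88e-11 from the exact binomial test. Ffar4, a fatty acid receptor of adipocytes and the next protein-coding gene on the chromosome, had 98 and 15 counts. Rbp4 lay with Ffar4 and Pde6c (0 counts in both libraries) in a stretch of 3 consecutive protein-coding genes under 100 counts in both libraries, where Cep55 before it had 988 and 1864 counts and Fra10ac1 after it had 700 and 725.

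In bulk RNA, fewer adipocytes in the culture and less of an mRNA in each adipocyte cannot be told apart. A list of other adipocyte markers was therefore set beside the adipokines. All 12 written markers were tested, and 9 were called lower, against 4.09% of all genes tested, with a median log2 fold change of -1.22 and a range from -2.20 to -0.33. In edgeR's exact test with an assumed coefficient of variation between cultures, the number called lower was 9 at 0.1, 2 at 0.2 and 0 at 0.4. The shares of all genes tested called lower at these settings were 2.68%, 0.547% and 0.0%. The median of the 7 tested adipokine genes was -1.30, and that of all genes tested was -0.0029. Fabp4, the fatty acid binding protein of adipocytes, had 151625 counts in the control against 63240 in the knockdown (log2 fold change -1.37). Gpd1, which makes glycerol 3-phosphate, had 30396 and 8692 counts (log2 fold change -1.91). Acsl1, Pnpla2, Lipe and Cidec, which activate, release or store fatty acids, had log2 fold changes of -1.38, -1.10, -1.12 and -1.22. The markers that were not called were Plin4 with 46134 and 39382 counts, Cd36 with 144 and 99 counts, and Slc2a4 with 26 and 17 counts. The summed level of this list was 7915 CPM (counts scaled to library size) in control and 3468 CPM in knockdown cells. The part of the share of adipocytes in the adipokine differences was not tested.

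**Figure D1:**
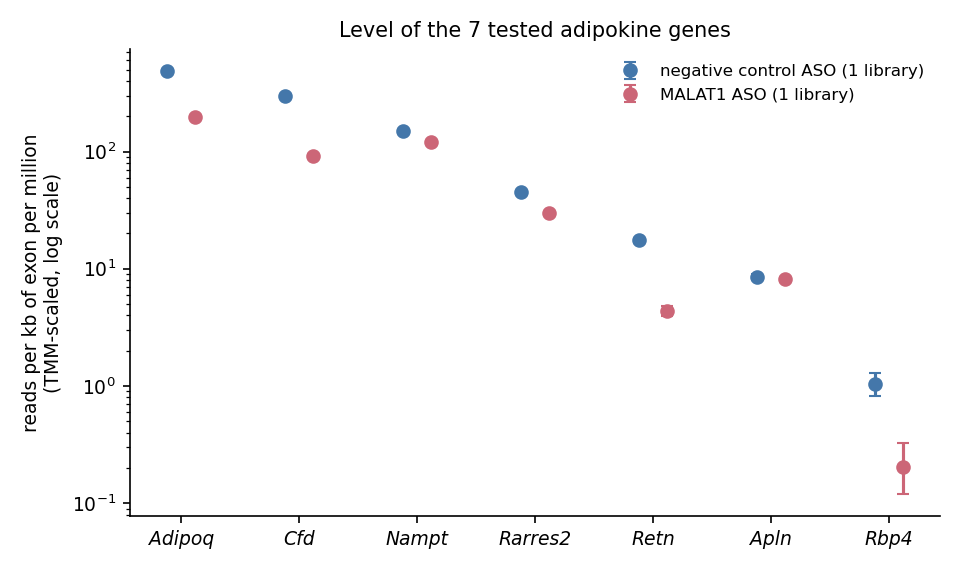
Level of each tested adipokine gene, in RPKM (reads per kilobase of exon, scaled to library size) on a log axis, in the control library (blue) and the MALAT1-knockdown library (red), with 1 library each and 95% Poisson intervals that cover counting error only. Adipoq falls from 487 to 197 RPKM and Rbp4 from 1.03 to 0.204 RPKM, while the points of Apln, at 8.51 and 8.16 RPKM, nearly coincide.

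The genes for chemerin, Nampt and apelin did not reach the 2-fold threshold. Chemerin, encoded by Rarres2, attracts immune cells through its receptor Cmklr1. Rarres2 (ENSMUSG00000009281.6, chr6:48569696-48572789) had 6948 counts in the control against 4938 in the knockdown, or 45.3 and 29.9 RPKM. Its log2 fold change was -0.60 (95% interval -0.65 to -0.55), under the 2-fold threshold, and 66.0% of the control level was left. Rarres2 overlaps Lrrc61 on the opposite strand, with 783 bases of shared transcript sequence, and Lrrc61 had 715 and 737 counts. The library kit kept strand, but whether the counting used it is not given in the sources used here.

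Nampt, the rate-limiting enzyme of NAD salvage and in its secreted form a cytokine, had the most reads of the 9 genes. Nampt (ENSMUSG00000020572.8, chr12:32819545-32853349) had 43420 counts in the control against 37790 in the knockdown, or 149 and 120.4 RPKM. The knockdown level corresponded to a log2 fold change of -0.31 (95% interval -0.33 to -0.29), or 80.8% of the control level, and Nampt was not called. It overlaps the long noncoding gene Gdap10 on the same strand, which had 1593 and 1302 counts.

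Apelin, encoded by Apln, is a peptide that acts on blood vessels and the heart through Aplnr. Apln (ENSMUSG00000037010.7, chrX:48025146-48034853) had 1546 counts in the control against 1596 in the knockdown, or 8.51 and 8.16 RPKM. Its log2 fold change was -0.06 (95% interval -0.16 to 0.04), with an adjusted p of 0.357 from the exact binomial test. At this depth the interval holds 0 and reaches no further than 89.4% to 103% of the control level.

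**Figure D2:**
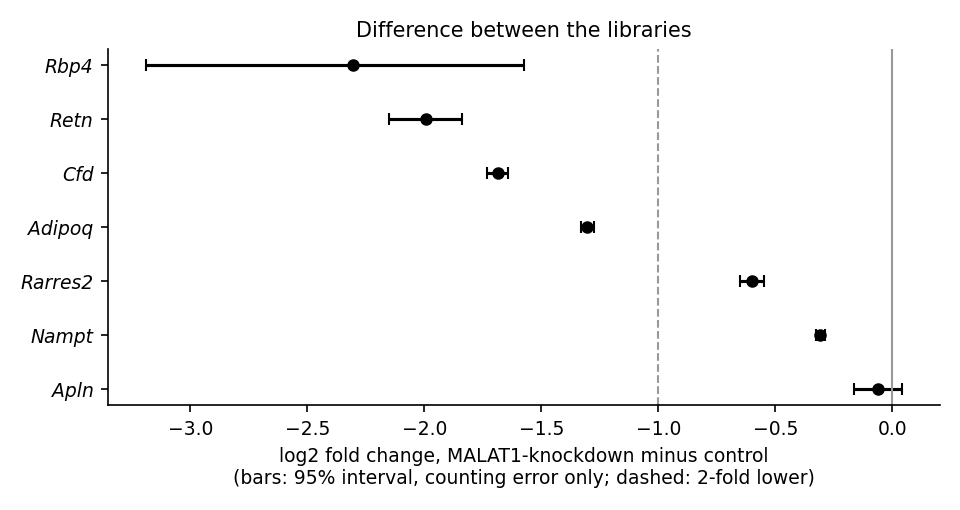
Log2 fold change of the 7 tested adipokine genes (points) with 95% Clopper-Pearson intervals for counting error, where the dashed line marks 2-fold lower in the MALAT1-knockdown library and the solid line no difference. Rbp4, Retn, Cfd and Adipoq lie wholly below the dashed line, from -2.31 to -1.30, and the interval of Apln alone crosses 0.

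The differences of the tested genes were also compared with each other as ratios of ratios, which do not depend on the scaling of the libraries or on gene length. For 19 of the 21 pairs, the 95% interval for counting error left out 0. Rbp4 could not be told from Retn, with a difference of log2 fold changes of -0.35 (-1.12 to 0.42), nor from Cfd, at -0.66 (-1.41 to 0.10). Retn was lower than Cfd by a difference of -0.31 (-0.47 to -0.15), and Cfd lower than Adipoq by -0.38 (-0.44 to -0.33). Between Adipoq and Rarres2 the difference was -0.70 (-0.76 to -0.64). The proportions of the adipokine transcripts thus differed between the libraries. There were 24.4 Adipoq reads for each Retn read in control cells and 39.3 in knockdown cells. Nampt gave 1.12 reads for each Adipoq read in control cells and 2.23 in knockdown cells. Of all reads on the 9 genes, Adipoq took 35.9% in the control library and 25.3% in the knockdown library. The share of Nampt was 40.2% and 56.4%.

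Each gene was then placed among genes with similar counts, as a description. Of the 2274 genes with a mean count within 2-fold of that of Cfd, 1 had a lower log2 fold change than Cfd. The number was 2 of 3811 for Retn, 2 of 624 for Adipoq and 16 of 2152 for Rbp4. It was 89 of 3636 for Rarres2, 40 of 366 for Nampt and 1641 of 4491 for Apln, which lay in the body of the distribution.

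**Figure D3:**
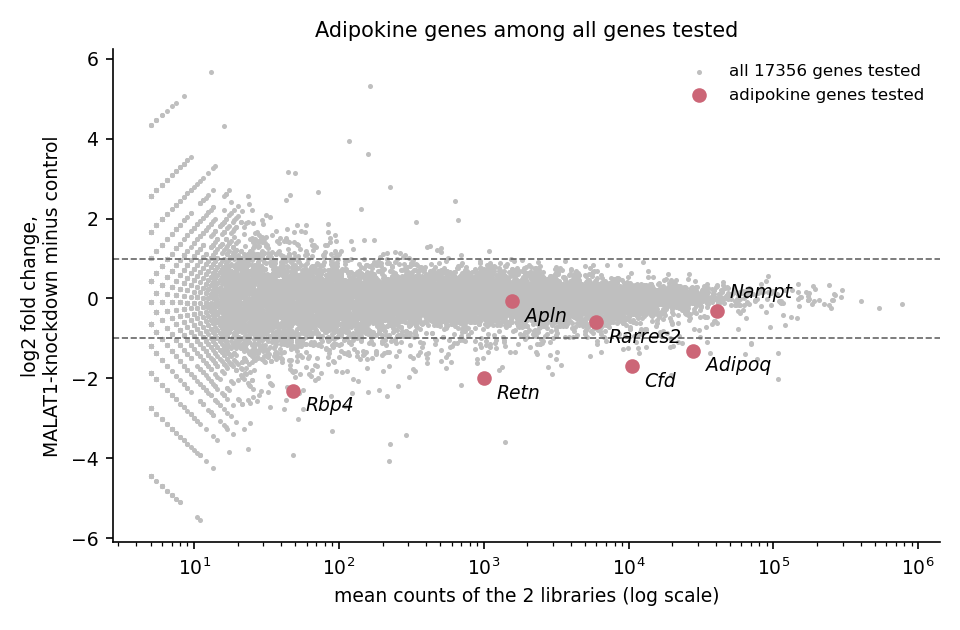
Log2 fold change between the MALAT1-knockdown and control libraries against the mean count of both libraries on a log axis, for the 17356 genes tested (grey) and the 7 tested adipokine genes (red), with dashed lines at 2-fold. Retn, Cfd and Adipoq lie at the lower edge of the cloud for their counts, whereas Apln lies inside it.

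Leptin, the satiety hormone encoded by Lep, was at the limit of detection. Lep (ENSMUSG00000059201.12, chr6:29060220-29073877) had 1 count in control cells and 0 counts in knockdown cells. The upper limits of the 95% Poisson intervals were 0.0288 RPKM in control cells and 0.0177 RPKM in knockdown cells. No fold change is given for it. The protein-coding gene directly before it, Lrrc4, also had 1 and 0 counts. Beyond these, Snd1 before Lrrc4 had 12342 and 14511 counts, and Rbm28 after Lep had 3064 and 3631. The leptin receptor Lepr had 17 and 10 counts.

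Angptl4, an inhibitor of lipoprotein lipase that PPARs and fasting induce, had 0 counts in control cells and 1 count in knockdown cells. This value stands in a stretch of the table where neighbouring genes also had few counts. Angptl4 (ENSMUSG00000002289.16, chr17:33773750-33781830) is the first of 15 consecutive protein-coding genes with under 100 counts in both libraries, which ran from Angptl4 to Vps52 over 192 kb in RefSeq order. Their median was 4 counts in the control against 2 in the knockdown. The stretch holds genes that nearly every cell uses. Rps28, a ribosomal protein gene, had 10 counts in each library, and Rps18 had 3 counts in each. Of 76 cytosolic ribosomal protein genes, 60 reached 1000 counts in both libraries, and Rps28 and Rps18 were the only ones under 100 in both. Ndufa7, a subunit of respiratory complex I, had 4 and 1 counts, where the median of 13 Ndufa genes was 2975 and 2499 counts. The gene before the stretch, Rab11b, had 2711 and 2037 counts, and H2-K1 after it had 430 and 633. Few counts returned beyond H2-K1, with 2 and 6 for Ring1 and 8 and 2 for Rxrb. Vps52 is therefore not the end of the low counts. The counts in this stretch hence give no measure of whether Angptl4 was expressed, and no fold change is given. The stretch was looked for after the counts of Angptl4 had been seen, and why it has few counts was not tested.

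**Figure D4:**
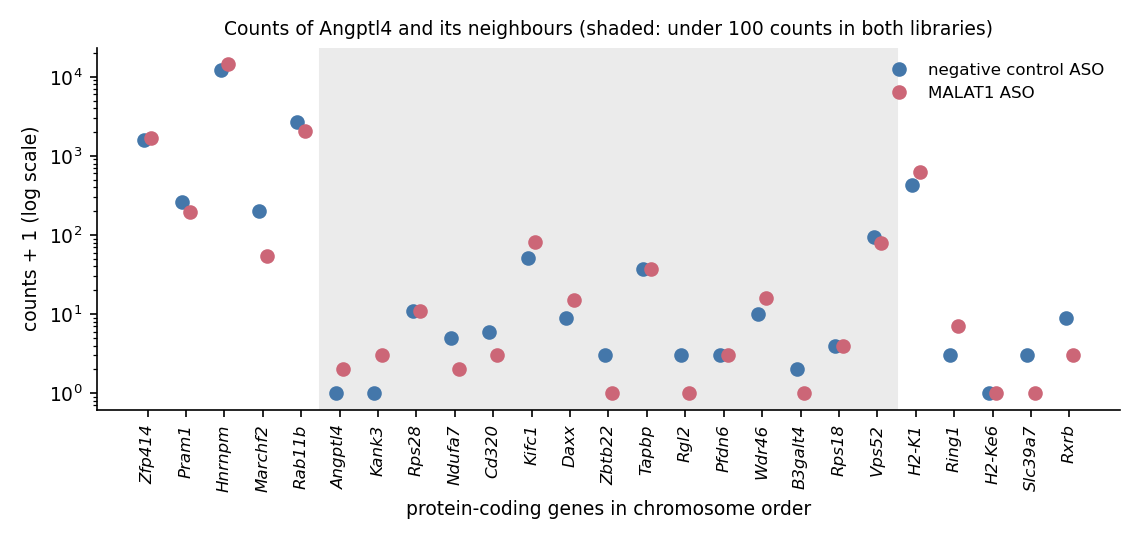
Counts plus 1 on a log axis for Angptl4 and its protein-coding neighbours in chromosome order, in the control library (blue) and the MALAT1-knockdown library (red), with shading over the 15 consecutive genes under 100 counts in both libraries. The points drop from 2711 and 2037 counts at Rab11b to 0 and 1 at Angptl4, and Rps28 stays at 10 counts in each library.

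Of 15 written receptors and binding partners of the adipokines, 11 were tested and none was called in either direction. Of all genes tested, 4.09% were called lower and 2.19% higher, so 0 calls among 11 genes do not set the list apart. Their median log2 fold change was 0.11. Among the adiponectin receptors, Adipor1 had 7633 counts in the control against 7902 in the knockdown, and Cdh13 (T-cadherin, which binds adiponectin multimers) had 5680 and 5931. Adipor2 had 34837 and 27096 counts (log2 fold change -0.47, with limits of -0.49 and -0.45). The chemerin receptor Cmklr1 had 6075 and 8057 counts (log2 fold change 0.30, with limits of 0.25 and 0.35), and Ccrl2, which presents chemerin, had 57 and 101 counts. Gpr1, also a chemerin receptor, had 3 and 10 counts. The proposed resistin receptors Cap1, Tlr4 and Ror1 had log2 fold changes of 0.11, 0.13 and 0.13. Cap1 had 24579 and 28641 counts, Tlr4 had 2533 and 2978, and Ror1 had 1564 and 1845. Aplnr had 13 and 6 counts, and Stra6, a receptor for Rbp4, had 7 and 0.

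Genes that fold, process or act beside the adipokines were described by lists. Over the 11 lists of this kind, receptors and other secreted proteins included, 7 of 108 genes tested were called lower (6.48%) and 0 higher. Of all genes tested, 4.09% were called lower and 2.19% higher. Among genes with a mean of at least 1000 counts, the share called lower was 0.739%. These lists hold genes above and below that level, so neither share is matched to them. In the list for assembly of adiponectin in the endoplasmic reticulum, 1 of 9 genes tested was called lower. This was Ero1l, the oxidase that helps to form and release adiponectin multimers, with 16652 counts in the control against 6935 in the knockdown (log2 fold change -1.37, with limits of -1.41 and -1.33). Its partner P4hb had 73057 and 75330 counts, and the lysyl hydroxylase Plod1 had 14170 and 11807. In the list around Angptl4, 1 of 12 genes was called lower, namely Lpl, the lipase that Angptl4 inhibits, with 51462 and 21392 counts and a log2 fold change of -1.37. Hspg2 and Itgb1 in this list had log2 fold changes of 0.17 and 0.09.

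No gene of the alternative complement, NAD salvage or retinol lists was called, beside 4.09% of all genes tested called lower and 2.19% higher. With 8 to 10 genes tested per list, 0 calls do not set a list apart. In the alternative complement list, 8 genes were tested with a median log2 fold change of 0.02. C3, the substrate of the convertase that Cfd helps to build, had 263412 counts in the control against 238441 in the knockdown (log2 fold change -0.25). Masp1, whose gene also encodes the protease that activates the precursor of adipsin, had 11454 and 17888 counts (log2 fold change 0.54, with limits of 0.50 and 0.57). In the NAD salvage list, 10 genes were tested with a median of -0.09. Nadk had 10394 and 10553 counts, and Nnmt, which methylates nicotinamide, had 1491 and 1060 counts (log2 fold change -0.60). In the retinol list, 8 genes were tested with a median of -0.12. The retinoid receptors Rxra and Rara had log2 fold changes of -0.33 and -0.19. In the list for processing of apelin and chemerin, 1 of 8 genes was called lower, namely Elane, with 24 and 3 counts, and it is the protein-coding gene next to Cfd on the chromosome. Mme and Ctsl in this list had log2 fold changes of 0.07 and -0.04.

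The relatives of the adipokines and other proteins that adipocytes secrete were examined in the same way. The shares of all genes tested beside them are again 4.09% called lower and 2.19% called higher. Of the C1q/TNF family, to which adiponectin belongs, 4 of 14 genes were tested and 0 called, with 1895 and 2383 counts for C1qtnf1 and 3733 and 4357 for C1qtnf6. Of the angiopoietin-like family, 4 of 6 were tested and 1 was called lower, Angptl7, with 286 and 137 counts. Angptl2, an inflammatory relative, had 14088 and 14233 counts, and Angptl1 had 452 and 630. Of the other secreted proteins, 33 of 38 written were tested, 3 were called lower and 0 higher, with a median log2 fold change of 0.02. The most abundant of the 3 was Hp, haptoglobin, with 93268 counts in the control against 46126 in the knockdown (log2 fold change -1.12, with limits of -1.14 and -1.11). The others had few reads, with 36 and 14 counts for Nrg4, a growth factor linked to brown fat, and 21 and 1 counts for Fgf21, a metabolic hormone with a log2 interval from -9.87 to -1.86. Il1rn, an interleukin-1 antagonist, had 162154 and 215235 counts (log2 fold change 0.30), and the chemokine Cxcl12 had 145416 and 159867 counts, at 0.03.

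**Figure D5:**
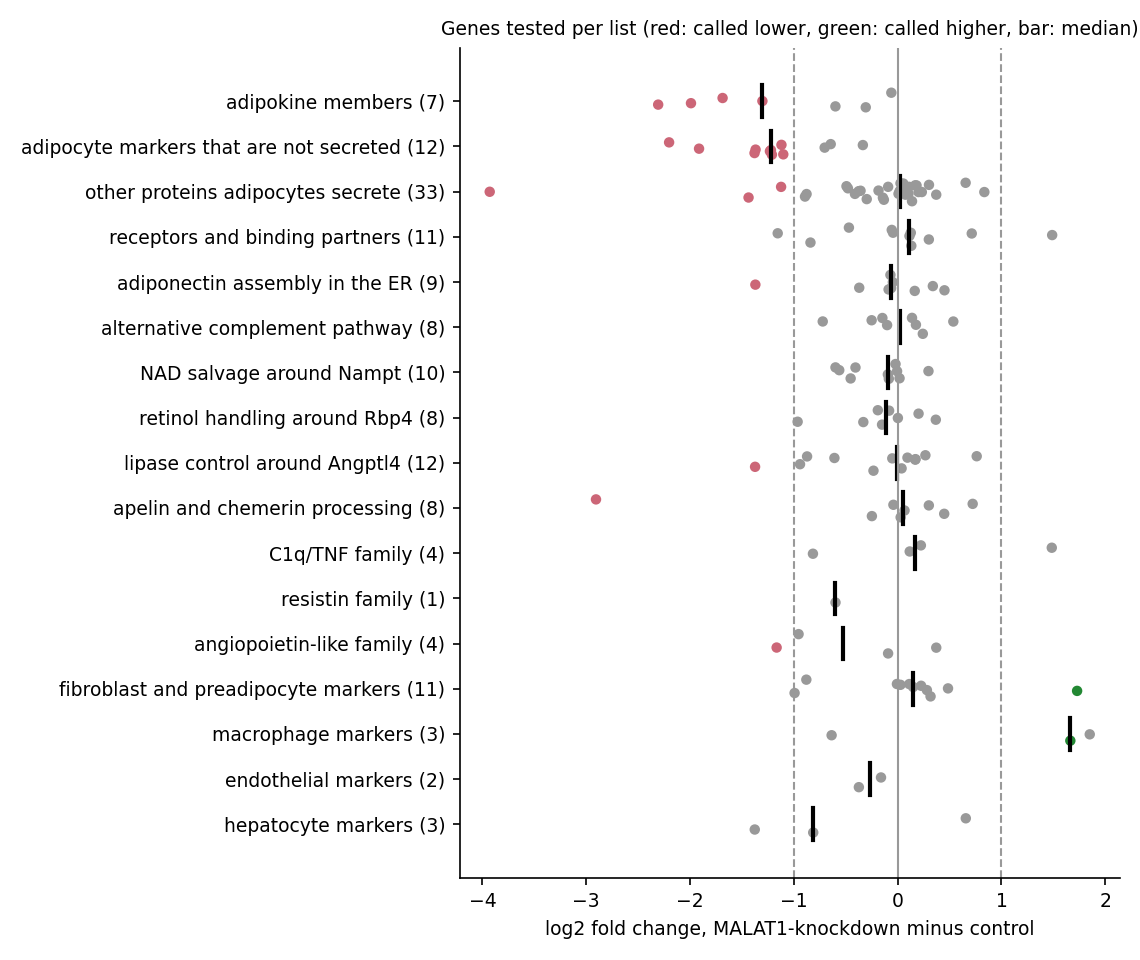
Log2 fold change between the MALAT1-knockdown and control libraries of every tested gene in every list, with the number tested in brackets, the median as a bar, genes called lower in red and called higher in green. The adipokine genes and the other adipocyte markers (labelled as not secreted in the figure) have medians of -1.30 and -1.22. The medians of the remaining lists with at least 8 genes tested lie between -0.12 and 0.15. The lists with 1 to 4 genes tested have medians from -0.81 (hepatocyte markers) to 1.66 (macrophage markers).

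Markers of other cells were given beside these results for the whole lists. Over the 11 fibroblast and preadipocyte markers tested the median was 0.15 on the log2 scale, and their summed level was 14924 CPM in control cells and 16017 CPM in knockdown cells. In this list 1 of the 11 genes tested was called higher, beside 2.19% of all genes tested. This gene was Cd34, with 19 and 69 counts, while Vim had 170088 and 214239 counts and Fn1 had 279976 and 307255. Dcn and Lum, matrix proteoglycans of the same list, lay below 0 and were not called, with 2247 and 1315 counts (log2 fold change -0.88) and 1246 and 674 counts (log2 fold change -0.99). The macrophage markers summed to 3.15 CPM in control cells and 2.53 CPM in knockdown cells. Adgre1, Ptprc and Itgam, which define macrophages and leukocytes, had 0 counts in both libraries, Cd68 had 172 and 119, and Csf1r had 3 and 13. Of the 3 macrophage markers tested, Lyz2, with 7 and 25 counts, was called higher, again beside 2.19% of all genes tested. The call of Lyz2 was lost with an assumed coefficient of variation of 0.1 and that of Cd34 with 0.2, and Lyz2 was not tested where at least 10 counts in each library were asked for. The endothelial markers summed to 0.849 and 0.740 CPM, with 26 and 25 counts for Pecam1 and 23 and 19 for Tek. The hepatocyte markers, relevant to Rbp4 because liver is its main source, summed to 2.22 and 2.49 CPM, with 33 and 20 counts for Alb and 77 and 131 for Ahsg.

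The size of the assumed spread between cultures decided how many of the adipokine genes were called. In edgeR's exact test, the biological coefficient of variation (the relative spread between cultures) has to be assumed. With a value of 0.1, the 4 genes were called lower, as were 2.68% of all genes tested. With 0.2, 0.547% of all genes tested were called lower. Of the adipokine genes, Retn (adjusted p = 0.00231), Rbp4 (0.00923) and Cfd (0.0173) were called by this exact test and Adipoq was not (0.124). With 0.4, none was called, and the share of all genes tested called lower was 0.0%, so that every call was lost and not those of the adipokines alone. With the threshold lowered from 2-fold to 1.5-fold in the exact binomial test, Rarres2 was called lower as well, beside 7.26% of all genes tested called lower and 4.37% called higher. The spread between cultures was not measured in these data.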

How the data were processed

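Total RNA of 1 control and 1 MALAT1-knockdown culture was depleted of rRNA and made into strand-keeping libraries. The authors deposited raw counts of reads per gene symbol, without normalization. The submitters' processing notes name HISAT2 and GRCm38, and the counting tool, annotation, strand setting and treatment of reads with several matches are not given in the sources used here. Groups came from the treatment label of each sample.

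Counts were scaled by TMM factors (edgeR 4.0.16, R 4.3.3) of 0.992 (control) and 1.01 (knockdown). Genes with at least 10 counts over both libraries were tested by a two-sided exact binomial test (scipy 1.17.1) in which the smaller tail was doubled, with Benjamini-Hochberg adjustment over all genes tested. The methods read here name no test for the RNA-seq data, and tests that estimate the spread need replicates. Clopper-Pearson intervals of log2 ratios, exact Poisson intervals of levels and normal intervals of ratios of ratios are at 95% and cover counting error only. The script was tested on simulated Poisson counts without spread between cultures, which checks the code and not the calls made in the real libraries. Levels per length used the union of GENCODE M21 exons, which 88.1% of tested genes had. Copies of the 9 genes were searched among GENCODE transcripts with BLAST+ 2.17.0 (at least 95% identity over 200 bases). The symbols of 190 of 191 written list entries were found in the table.

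Named genes were all 9 members, each tested receptor and, per other list, the called genes (at most 6) and the 2 most abundant genes not called. Snd1, Rbm28, Lrrc4, the neighbours of Rbp4 and the neighbours of Angptl4 fall outside the rule and were named after their values were seen, as were Retnlb, Retnlg, Slc2a4, Stra6, Adgre1, Ptprc, Itgam, Dcn, Lum, the overlapping genes and those of the closing observations. The members and lists were chosen with earlier results of these data known. The alternatives were other scalings (library totals, DESeq2 1.42.0 size factors, upper-quartile factors), other filters, another prior count, edgeR's exact test with preset variation, and a 1.5-fold threshold.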

Additional observations from a re-analysis of the deposited data

How the results depend on the processing

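The same 4 adipokine genes were called lower, and 0 higher, under library totals, DESeq2 size factors, upper-quartile factors, a filter of at least 1 count summed, a filter of at least 10 counts in each library and a prior count of 2. The shares of all genes called, 4.09% lower and 2.19% higher in the main setting, are not given for these alternatives. No log2 fold change of an adipokine gene moved by more than 0.0971 under these settings, and the median of all genes moved by at most 0.0221. With the 1.5-fold threshold, Rarres2 was called lower as well, which made 5 genes. With an assumed coefficient of variation of 0.4 between cultures, edgeR's exact test called 0 adipokine genes lower, and 0 of all 17356 genes tested. Of the 108 genes tested in the 11 other lists, 7 were called lower and 0 higher, beside 4.09% and 2.19% of all genes tested. With a coefficient of 0.2 the number called lower was 1, beside 0.547% of all genes tested, and with 0.4 it was 0, beside 0.0%. Under the other scalings, filters and prior count it was 5 to 8, and shares of all genes are not given for these settings. With the 1.5-fold threshold, 15 of the 108 genes were called lower and 3 higher, beside 7.26% and 4.37% of all genes tested. A larger coefficient widens the assumed spread, and a lower threshold admits smaller differences, by construction. Leaving out a library was not possible with 1 per group. No paired analysis was possible because each group has 1 library. Counts under about 100, as for Rbp4, Nrg4, Fgf21 and Elane, limit the precision of their log2 fold changes, and Elane and Fgf21 were not tested with the filter of at least 10 counts in each library.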

Other observations

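Beside Angptl4, Lep and Rbp4, other genes that bear on adipocyte secretion lay in stretches of neighbouring protein-coding genes with under 100 counts in both libraries. They were looked at after their counts had been seen. Cfb, complement factor B and the substrate of Cfd, had 0 counts in the control against 1 in the knockdown, and it lay among 8 consecutive genes from Cyp21a1 to Zbtb12 with medians of 2 and 3 counts. C4b, the gene before them, had 1207 and 762 counts. Gstk1, a glutathione transferase that takes part in the assembly of adiponectin multimers, had 0 counts in both libraries and lay among 8 consecutive genes from Sval2 to Tmem139, of which none had more than 6 counts. Slc2a4, the insulin-responsive glucose transporter, had 26 and 17 counts and lay among 5 consecutive genes from Ybx2 to Ctdnep1 with medians of 25 and 17 counts. Eif5a, the translation factor gene before that stretch, had 185 counts in the control against 1081 in the knockdown. Gabarap, the gene after the stretch, had 158 and 178, so neither flanking gene had many counts in the control library. The cause of the difference at Eif5a was not tested. Why these stretches have few counts was not tested. Those of Lep and Rbp4 held only 2 and 3 genes, against 15 for Angptl4, and how often such short runs occur was not counted.

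Fcor, a repressor of Foxo1 in fat cells whose gene lies close to Retn, had 444 counts in the control against 177 in the knockdown. Stxbp2, the protein-coding gene on the other side of Retn, had 1219 and 972 counts.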
